A study of Homo sapiens with 4 samples.

Results

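The genes described here are neurotensin and its receptors: NTS, which encodes the neurotensin precursor, NTSR1 and NTSR2, which encode its G protein-coupled receptors, and SORT1, which encodes sortilin. The members were chosen by gene symbol, as every probe named for one of the 4 genes, and the set was drawn up because the ligand and a receptor showed high signal in opposite cell fractions. Of the 47321 probes on the array, 30111 carried 1 gene symbol, for 20046 genes, and 4 of these probes belonged to the set: 2 for NTS, 1 for NTSR1 and 1 for NTSR2. SORT1 had 0 named probes and is not analysed here. Because the fractions' signals chose the set, the values of these probes are given as a description and carry no test.

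Neurotensin is a short peptide that is cut from a larger precursor and released from neurons and from endocrine cells of the gut. NTSR1 is its high-affinity receptor and signals mainly through Gq proteins, phospholipase C, calcium and protein kinase C. NTSR2 binds the peptide with lower affinity, and sortilin is a sorting receptor that also binds it. In several tumour types, breast carcinoma among them, neurotensin and NTSR1 are known as an autocrine growth system.

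Expression was measured in the breast cancer line MDA-MB453, established from a human tumour and here split by green fluorescence (GFP). The GFP-positive cells, 2 arrays, are labelled cancer stem-like cells, and the GFP-negative cells, 2 arrays, are labelled as their non-stem-like counterpart. The promoter or construct behind the fluorescence was not given in the sources used here. Each replicate number joins a GFP-positive and a GFP-negative RNA; the series text gives different isolation days for the pairs and says that RNA batches were combined before hybridisation, without saying how. The labels do not say whether replicates came from separate cultures, so p-values below measure only the spread between these arrays, which may be technical. Each array gave 17400 to 18197 detected probes (detection p-value under 0.05), and correlations across tested probes were 0.991 within GFP-positive, 0.987 within GFP-negative and 0.843 to 0.856 between the groups. Of 11 markers of a luminal, ERBB2-expressing breast line with a named probe, 8 were tested. GATA3, AGR2 and PIP, which define such a line, were detected on no array. ERBB2 was detected in both fractions, at log2 signals of 10.70 ± 0.05 in GFP-positive and 12.16 ± 0.09 in GFP-negative cells (SD, n = 2 each), and KRT8, a luminal keratin, at 13.68 ± 0.03 in GFP-positive and 8.50 ± 0.78 in GFP-negative cells. The ERBB2 values rest on 1 probe, and its other probes, ILMN_1728761 and ILMN_1717902, were detected on no array. The endothelial markers PECAM1, VWF, CDH5 and KDR and the neuroendocrine markers CHGB, SYP, INSM1 and NCAM1 were likewise detected on no array. CHGA, another neuroendocrine marker, was detected on 1 of 2 GFP-positive arrays and was not tested. Of 5 leukocyte markers with a named probe, CD14 and CD68 were tested and detected in both fractions. Their brightest tested probes had log2 differences, GFP-positive minus GFP-negative, of -0.31 and -0.4 (limma, adjusted p of 0.415 and 0.161). Another CD68 probe had 2.32 (limma, adjusted p = 0.000167). CD163 was detected on 1 GFP-negative array, and PTPRC and CD3E on none.

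The promoters of the ligand and of the receptor that differed are printed because the fractions separated them in opposite directions. Sequences are the 250 bases before the annotated gene start, from RefSeq on GRCh38.p14, given 5′ to 3′ on the gene's strand. The NTS promoter lies at chr12:85874045-85874294 on the plus strand, and the capitals mark an element TGACNTCA, a cyclic AMP response element with 1 free base, and a run of overlapping TATATA. The NTSR1 promoter lies at chr20:62708586-62708835 on the plus strand, and the capitals mark 2 overlapping GC boxes (GGGCGG).
NTS: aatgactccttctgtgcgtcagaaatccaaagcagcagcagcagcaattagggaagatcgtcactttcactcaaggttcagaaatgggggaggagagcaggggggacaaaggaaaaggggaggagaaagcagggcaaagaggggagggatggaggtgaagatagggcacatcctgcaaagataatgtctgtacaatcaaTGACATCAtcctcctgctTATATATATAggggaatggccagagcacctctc
NTSR1: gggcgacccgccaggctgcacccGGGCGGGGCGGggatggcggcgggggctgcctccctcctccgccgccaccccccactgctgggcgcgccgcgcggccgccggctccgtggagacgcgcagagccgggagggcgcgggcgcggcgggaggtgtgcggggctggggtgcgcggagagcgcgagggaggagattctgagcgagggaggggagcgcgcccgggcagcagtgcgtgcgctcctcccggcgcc

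The promoters differed in base composition. The NTSR1 window was 82.0% G and C with 38 CpG dinucleotides, and the NTS window was 49.2% G and C with 2 CpG dinucleotides, against medians of 58.0% and 11 over 35116 promoters. In the NTS window, TGACNTCA began at position -51 from the gene start and TATATA at -33, -31 and -29. These were chosen after the sequence was read, and 6.87% and 3.73% of all promoters hold them. Of the motifs searched on both strands from a list, TGACG, which is part of the cyclic AMP response element, matched the minus strand of the NTS window at -234 and -192 (21.2% of all promoters), outside the printed capitals. The GC box matched the NTSR1 window at -227 and -222 (42.6% of promoters). The AP-1 motif TGANTCA (6.57% of promoters), the full cyclic AMP response element TGACGTCA (1.65%), the TATA box TATAAA (10.7%), the TCF motif CTTTGAT (2.26%) and the glucocorticoid element part TGTTCT (12.4%) had 0 matches in either window. A match of letters is a description and not a site in use.

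NTS, the ligand precursor, had high signal in GFP-negative cells and none above background in GFP-positive cells. Its bright probe, ILMN_1764690, gave a non-normalized bead signal of 168.1 in GFP-positive replicate 1 and 154.9 in GFP-positive replicate 2, against 37354 in GFP-negative replicate 1 and 39179 in GFP-negative replicate 2. The detection p-value, which ranks a probe among the array's negative controls, was 0.323 and 0.6 in GFP-positive cells and 0 on each array of GFP-negative cells. The groups did not overlap, and within a group the signals differed by a factor of only 1.09 in GFP-positive and 1.05 in GFP-negative cells. After background correction and quantile normalization, log2 signal was 5.43 ± 0.22 in GFP-positive cells and 15.15 ± 0.09 in GFP-negative cells (SD, n = 2 each). Because no GFP-positive array detected the probe, the difference is given as a bound, which takes the GFP-positive level as no lower than the dimmest detected probe of each array. NTS was lower in GFP-positive cells by at least 173-fold without background correction, and by at least 514-fold on the background-corrected scale.

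For NTS, both pairs of arrays gave a difference in the same direction. The values that follow take in GFP-positive signals at background, so they are not measured folds, and the bounds above are the values to read. The log2 difference, GFP-positive minus GFP-negative, was -9.50 in pair 1 and -9.94 in pair 2, and -7.80 and -7.98 as log2 ratios of the deposited signals. The ratio of mean signals was 237 before any background correction. Its GFP-negative signals lay near the top of the arrays' range, where the brightest probe had 57534 and 56908 in GFP-negative replicates 1 and 2.

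The other NTS probe, ILMN_2189366, is annotated to the same transcript and detected NTS on no array. Its signals were 99.2 and 121.6 in GFP-positive cells and 126.7 and 108.5 in GFP-negative cells, with detection p-values from 0.803 to 0.982. The groups overlapped, and log2 signal was 4.91 ± 0.08 against 4.97 ± 0.09 (SD, n = 2 each). The statement on NTS therefore rests on 1 of its 2 probes. Silent partner probes were common on this array: of 4406 genes with several named probes and at least 1 detected on both arrays of a group, 2167 (49.2%) had another probe detected on no array. Among 57 such genes with a called probe that differed by over 5 on the log2 scale, 22 (38.6%) had a silent partner.

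NTSR1, the high-affinity receptor, showed the opposite arrangement. Its probe, ILMN_1778831, had signals of 5811 and 6906 in GFP-positive replicates 1 and 2, against 127.0 and 114.2 in GFP-negative replicates 1 and 2. Detection p-values were 0 for each GFP-positive array, against 0.799 and 0.883 in GFP-negative cells. The groups did not overlap, and signals within a group differed by factors of 1.19 in GFP-positive and 1.11 in GFP-negative cells. Log2 signal was 12.70 ± 0.16 in GFP-positive cells and 4.99 ± 0.06 in GFP-negative cells (SD, n = 2 each), and NTSR1 was higher in GFP-positive cells by at least 32.5-fold without background correction and at least 95.5-fold with it. The log2 difference was 7.55 in pair 1 and 7.87 in pair 2, and the ratio of mean deposited signals was 52.7.

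NTSR2, the low-affinity receptor, was not detected in either fraction. Signals were 133.4 and 147.3 in GFP-positive cells and 128.4 and 141.1 in GFP-negative cells, with detection p-values from 0.662 to 0.79. The groups overlapped, and log2 signal was 5.16 ± 0.03 against 5.11 ± 0.10 (SD, n = 2 each). At this brightness a receptor at a low level could not be told from its absence, and no fold is given.

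**Figure D1:**
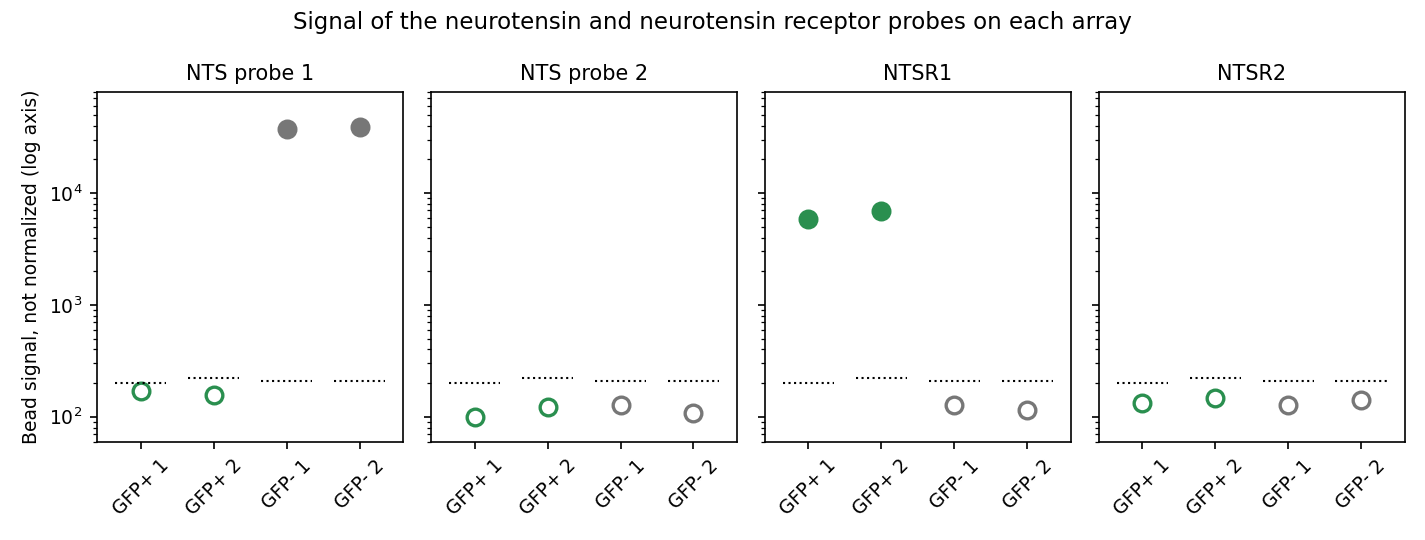
Non-normalized bead signal (log axis) of the 4 probes on each array, GFP-positive in green and GFP-negative in grey. Filled points were detected (p under 0.05), open points were not, and the dotted line is the lowest signal of any detected probe on that array. NTS probe 1 is detected in GFP-negative cells alone, at 37354 and 39179, NTSR1 in GFP-positive cells alone, at 5811 and 6906, and NTS probe 2 and NTSR2 on no array.

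Of the 4 probes, 2 passed the detection filter (detected on both arrays of at least 1 group), NTS probe 1 and NTSR1, each through the fraction where it was bright. Over all 18098 tested probes, 40.5% were called at an adjusted p under 0.05, 18.8% higher and 21.7% lower in GFP-positive cells, and the groups did not overlap for 72.6%. Since the set was drawn from this contrast, nothing is read from the members' own count. With bulk RNA, fewer cells with a transcript and less of it per cell cannot be told apart.

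Fibroblast-type collagen genes had the direction of NTS. COL3A1 was 5.88 ± 0.59 in GFP-positive and 8.80 ± 0.62 in GFP-negative cells (log2 signal, SD, n = 2 each), and COL1A2 and COL1A1 were lower in GFP-positive cells as well. Of 7 fibroblast markers, 3 were tested and all 3 were lower, with a summed normalized signal over the 7 of 352 to 447 in GFP-positive and 953 to 1259 in GFP-negative cells. COL3A1 and COL1A1 were each detected on 1 of 2 GFP-positive arrays, and COL1A2 by its brightest probe on 0. All 3 thus passed the detection filter only through GFP-negative cells, which favours this direction. COL1A2 was lower by at least 3.95-fold, or 2.02-fold without background correction. DCN, LUM, PDGFRA and PDGFRB, which define fibroblasts, were detected on no array. COL1A1 lost its call without GFP-positive replicate 2 (adjusted p = 0.176), without GFP-negative replicate 1 (0.167) and without a detection filter (0.126). The part of other cells in the NTS difference was not tested.

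Genes whose profiles were nearest to the members over the 4 arrays were found by Euclidean distance between log2 signals centred on each probe's mean. Those nearest to NTS were GAGE4 (distance 0.96), GAGE12C (1.13), H19 (1.64), LIPG (1.65) and GAGE12H (1.77). The GAGE genes are near-identical copies, so it is uncertain which of them these probes read. H19 is an imprinted noncoding RNA and LIPG encodes a lipase. Those nearest to NTSR1 were FABP5 (0.22), PFKP (0.28), HAS3 (0.29), ALDH1A3 (0.39) and CA2 (0.43), which encode a fatty acid carrier, a glycolytic kinase, a hyaluronan synthase, an aldehyde dehydrogenase and a carbonic anhydrase. With 4 arrays in 2 groups, this likeness is mostly a likeness in size of the group difference.

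The genes next to NTS and NTSR1 on the chromosome did not share one direction with them. For each, the 3 nearest protein-coding genes with a named probe on either side were read from the GRCh38.p14 gene table, a choice made after the members' values were seen. Beside NTS, 3 of 6 were tested and gave 1 higher, 1 lower and 1 not past the threshold. The direct neighbour RASSF9, a Ras-association family gene, was lower by at least 12.9-fold with background correction and 5.01-fold without it (log2 signals of 5.53 and 5.43 in GFP-positive cells, against 9.86 and 9.79 in GFP-negative cells, adjusted p = 1.97e-06), the direction of NTS. On the other side, MGAT4C and C12orf50 were not tested, and RLIG1 had a log2 difference of 0.67 (adjusted p = 0.0291). RLIG1 lost its call without any of 3 arrays, with adjusted p of 0.114 and 0.144 without GFP-positive replicates 1 and 2 and 0.112 for GFP-negative replicate 1, and at 0.071 without a detection filter. Beside NTSR1, 4 of 6 were tested, with 1 higher, 1 lower and 2 not past. The transporter gene SLCO4A1 next to it had a log2 difference of 0.84 ± 0.17 (SE; adjusted p = 0.00699, and 0.0527 without GFP-positive replicate 2), and the transcription factor gene GATA5 was at least 2.35-fold lower, or 1.47-fold without background correction. MRGBP and OGFR differed by 0.29 and 0.44 and did not pass.

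Around the members, 126 genes of the pathway were listed by role, of which 81 were tested. Of these, 31 were higher and 11 lower in GFP-positive cells at an adjusted p under 0.05 (limma moderated test, Benjamini-Hochberg over all tested probes). That is 51.9% called, where 42.6% of all 10955 tested genes were called by their brightest tested probe, 20.3% higher and 22.4% lower. The median log2 difference was 0.35 over the pathway genes and -0.05 over all genes, whose groups did not overlap for 74.9%. Requiring detection on all 4 arrays left 16 higher and 7 lower, since many of the called genes were near background in 1 fraction. Bounds given below as "at least" are on the background-corrected scale. Genes with such a bound passed the detection filter only through their brighter fraction, which favours the direction seen. Of 29 named genes with a bound, all 29 had a smaller one without that correction, by factors of 1.17 to 2.95 (median 2.52).

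Among genes of prohormone processing, the called enzymes were all higher in GFP-positive cells, and the 1 lower gene encodes an inhibitor. Of 8 tested genes of prohormone processing, 4 were higher, 1 was lower and 3 did not pass, and 1 of the 5 called was detected on all 4 arrays. PCSK5, PCSK6, SCG5 and PCSK1N each passed the detection filter only through the fraction where they were brighter. That favours the directions seen, so the contrast of enzymes and inhibitor is a description only. PCSK5, a convertase known to cut the neurotensin precursor, was at least 2.28-fold higher, or 1.45-fold without background correction (7.31 ± 0.19 in GFP-positive and 5.71 ± 0.35 in GFP-negative cells). The related PCSK6 was at least 1.3-fold higher, or 1.12-fold without background correction, and was not tested with the stricter detection p-value. SCG5, the chaperone of the convertase PCSK2, was at least 1.99-fold higher. CPE, a carboxypeptidase, was higher by 0.90 ± 0.19 (log2 difference, SE) and was the 1 called gene detected on all 4 arrays. PCSK1N, an inhibitor of the convertase PCSK1, was lower by at least 6.58-fold, or 2.9-fold without background correction (5.88 ± 0.29 in GFP-positive and 8.86 ± 0.28 in GFP-negative cells). The neuroendocrine convertases PCSK1 and PCSK2 lacked a named probe.

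Of 14 secretory granule genes, 6 were tested, 4 were higher and 2 did not pass. SCG2, a granin, had log2 signals of 10.43 and 10.34 in GFP-positive cells, against 6.27 and 5.96 in GFP-negative cells, where 1 of 2 arrays detected it. VGF, another granule protein, was higher by 2.59 ± 0.18 (log2 difference, SE), CADPS2, which primes granules for release, by 2.41 ± 0.17, and SYT7, a calcium sensor of exocytosis, by 2.56 ± 0.17. The other tested SYT7 probe had 0.24 and did not pass. CHGA, CHGB, SCG3 and SYP were among the 8 that did not pass the detection filter.

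Of the peptidases that break down neurotensin, 3 of 6 were tested. PREP, prolyl endopeptidase, had a log2 difference of 0.65 ± 0.18 (adjusted p = 0.0226). Its call ended with 75th percentile scaling (0.0817) and when any of 3 arrays was left out, at 0.0839 without GFP-positive replicate 1, 0.163 for GFP-positive replicate 2 and 0.0809 for GFP-negative replicate 1. NLN and THOP1, the metallopeptidases neurolysin and thimet oligopeptidase, had 0.30 and 0.26 and did not pass. The membrane peptidases MME, ACE and ECE1 were not tested.

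As SORT1 had no named probe, genes of its family and its sorting partners are described. Their levels do not give the level of SORT1. Of the other receptors with a VPS10 domain, SORL1 (7.87 ± 0.33 against 7.73 ± 0.25) and SORCS1 (6.12 ± 0.02 against 6.23 ± 0.16) were tested and 0 were called by limma, with 0 at an unadjusted p under 0.05. Without a detection filter SORCS2, detected on no array, was called (log2 signal 4.93 in GFP-positive and 5.71 in GFP-negative cells, adjusted p = 0.0228), and no fold is given. Of 11 tested genes of the sorting machinery, 8 did not pass. VPS26B, a retromer subunit, was lower by a log2 difference of -1.56 ± 0.20, and SNX1, a sorting nexin, and GGA3, a clathrin adaptor, were higher by 0.92 ± 0.18 and 0.61 ± 0.18. SNX1 lost its call without GFP-positive replicate 2 (adjusted p = 0.0634), which left 1 of the 3 called. GGA3 lost its call without a detection filter (0.0548), with 75th percentile scaling (0.0672), and when GFP-positive replicates 1 and 2 (0.106 and 0.179) or GFP-negative replicate 2 (0.0821) were left out in turn.

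Of proteins that bind sortilin, 3 were tested and 1, BDNF, was called. Its precursor is a ligand of sortilin, and it was at least 36-fold higher in GFP-positive cells, or 12.7-fold without background correction, with log2 signals of 11.40 and 11.19 against 5.65 and 5.79 in GFP-negative cells (adjusted p = 9.4e-07). The other tested BDNF probe was detected on both GFP-negative arrays and on 1 of 2 GFP-positive arrays. It had a log2 difference of -0.16 and did not pass, so the bound holds for 1 probe only. The lysosomal ligands GRN and PSAP had 0.39 and -0.11 and did not pass, and NGFR, the co-receptor of sortilin, was not tested.

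Downstream of the receptor, the Gq and protein kinase C genes were split. Of 12 tested, 5 were higher, 2 were lower and 5 did not pass, and 3 of the 7 called were detected on all 4 arrays. GNAQ, the alpha subunit of Gq, was at least 4.53-fold higher in GFP-positive cells, or 2.2-fold without background correction (8.30 ± 0.02 against 4.86 ± 0.05), and PLCB1, a phospholipase C, at least 1.39-fold higher. The kinase PRKCA was higher by 1.65 ± 0.18. PRKD1, protein kinase D, went the other way and was at least 4.17-fold lower, or 2.08-fold without background correction (4.93 ± 0.03 against 8.20 ± 0.01). GNA11, the only other alpha subunit gene of the list that was tested, was also lower, by -0.84 ± 0.20 (adjusted p = 0.0151). It was detected on all 4 arrays, so the 2 tested alpha subunit genes differed in direction. Leaving out GFP-positive replicate 2 left 4 called genes in this group.

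Of 7 tested genes that switch off receptor signalling, 1 was higher and 3 were lower. Without GFP-positive replicate 2, without GFP-negative replicate 1 or without a detection filter, 2 genes of this group were called in place of 4. RGS16, which speeds the shut-off of G proteins, had 7.0 ± 0.27 in GFP-positive and 9.51 ± 0.10 in GFP-negative cells. The receptor kinases GRK4 and GRK6 had log2 differences of -1.48 ± 0.25 and -0.85 ± 0.25, each detected on 1 of 2 GFP-positive arrays, and the arrestin ARRB1 had 1.29 ± 0.29. GRK6 lost its call without background correction (adjusted p = 0.0508), without a detection filter (0.106), and without GFP-positive replicate 2 (0.209), GFP-negative replicate 1 (0.133) or GFP-negative replicate 2 (0.0605). ARRB1 lost its call without a detection filter (0.0603) and when GFP-positive replicate 2 (0.0589) or GFP-negative replicate 1 (0.0601) was left out, and its other probes had 0.91 (adjusted p = 0.0305) and 0.25 (0.287).

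Genes of the EGF receptor family and of invasion that are linked to NTSR1 in tumours gave 4 higher, 3 lower and 5 not past of 12 tested. EGFR by its brightest probe was at least 9.2-fold higher in GFP-positive cells, or 3.76-fold without background correction. Its other tested probe was detected on all 4 arrays, at 6.49 ± 0.40 in GFP-positive and 6.59 ± 0.01 in GFP-negative cells. That probe had a log2 difference of -0.10 and did not pass, so the bound holds for 1 probe only. The EGFR ligands TGFA and EREG were at least 11.6-fold and 11.1-fold higher, or 4.58-fold and 4.4-fold without background correction. ADAM10, a protease that sheds such ligands, was lower by -1.55 ± 0.29 (log2 difference). The receptor genes ERBB2 and ERBB3 were lower as well, by -1.46 ± 0.17 and -0.85 ± 0.18, and both were detected on all 4 arrays. The other tested ERBB3 probe had -0.57 and did not pass. The receptor genes of this family were thus called in both directions. MMP2, MMP9 and PTGS2 were not tested.

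A list of factors of AP-1, cyclic AMP response and glucocorticoid elements, kinds known to act on NTS, also held the intestinal homeobox factors CDX1 and CDX2, which are not known for binding these elements. Of 11 tested, 5 were higher, 1 was lower and 5 did not pass, and 2 of the 6 called were detected on all 4 arrays. CDX2, 1 of the 5, was at least 14-fold higher in GFP-positive cells, or 5.35-fold without background correction (9.93 ± 0.01 against 5.19 ± 0.16). The AP-1 subunits FOSL1 and FOSB were at least 10.7-fold and 2.2-fold higher, or 4.27-fold and 1.42-fold without background correction, and ATF3 was higher by 2.68 ± 0.32. The 1 lower gene was CREB1, which binds the cyclic AMP response element, with a log2 difference of -0.52 ± 0.17 (adjusted p = 0.0434), named after its value was seen. Its call was lost with any 1 array left out (0.0718 to 0.194), with cyclic loess (0.0548) and with no detection filter (0.0655). Its other 3 tested probes had -0.77, -0.44 and -0.09 and did not pass (adjusted p of 0.107, 0.0755 and 0.779). JUN and ATF2 had -0.36 and -0.21 and did not pass. The glucocorticoid receptor gene NR3C1 was not tested.

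TCF factors and beta-catenin targets, a pathway known to act on NTSR1, gave 4 higher and 2 not past of 6 tested. DKK1, a secreted Wnt inhibitor, had log2 signals of 14.15 and 14.29 in GFP-positive cells, against 7.56 and 7.82 in GFP-negative cells. AXIN2, a feedback inhibitor, was higher by 3.23 ± 0.22 and the factor TCF7L2 by 2.57 ± 0.17, and the ligase RNF43 was at least 1.65-fold higher. CTNNB1, beta-catenin itself, had 0.73 with an adjusted p of 0.054, and passed with replicate number as a block (0.0182), without background correction (0.0188), with stricter detection filters (0.0476 and 0.0496) and with GFP-negative replicate 2 left out (0.00982).

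**Figure D2:**
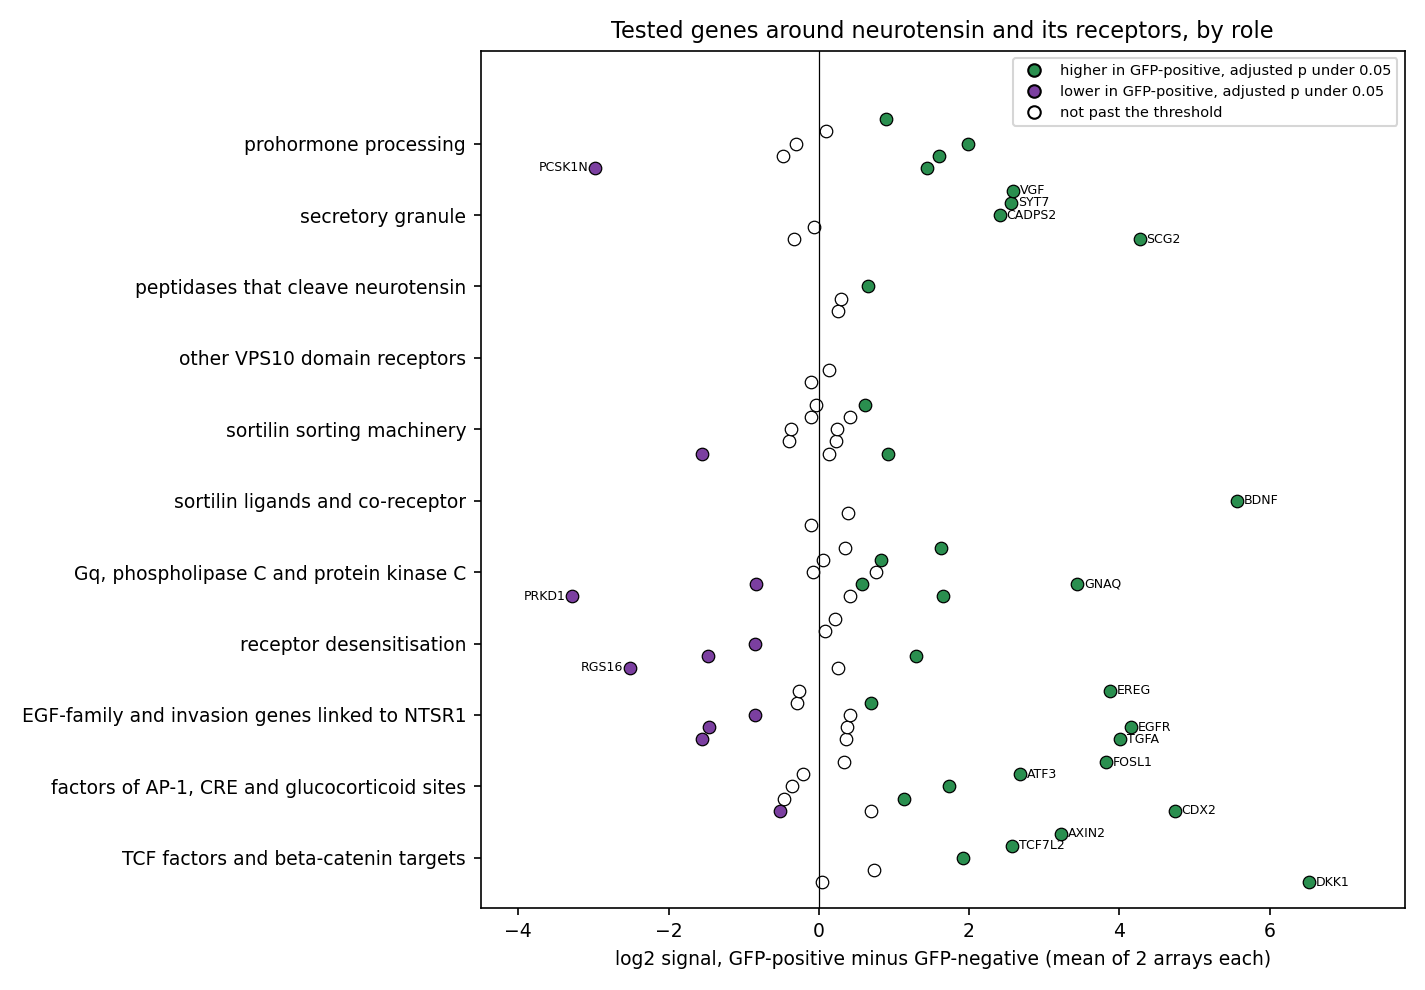
Log2 difference, GFP-positive minus GFP-negative (means of 2 arrays each), of every tested pathway gene, 1 point a gene by its brightest tested probe and 1 line a role. Green points were higher and purple points lower past the threshold, open points were not past it, and called genes named in the text whose difference exceeds 2 are labelled. BDNF at 5.57 and DKK1 at 6.53 lie farthest to the right, and PRKD1 at -3.28 and PCSK1N at -2.98 farthest to the left.

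A ligand in one fraction and its receptor in the other was asked of other peptides as well, over 72 pairs of 44 peptide precursors and 61 G protein-coupled receptors. Of these, 9 precursors and 12 receptors were tested, and both partners were tested in 3 pairs. Galanin (GAL) was higher in GFP-positive cells (11.71 ± 0.23 against 10.91 ± 0.01) and its receptor GALR2 lower (6.10 ± 0.33 against 7.57 ± 0.33, detected on 1 of 2 GFP-positive arrays). This pair was thus called in opposite directions, with the ligand on the GFP-positive side, and it was lost when either array numbered 1 was left out, where GAL had adjusted p of 0.113 (GFP-positive left out) and 0.0516 (GFP-negative left out). UCN, urocortin, was higher by 0.68 while its receptor CRHR1 had -0.31 and did not pass, and AVP and AVPR2 did not pass (-0.11 and -0.08).

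Outside complete pairs, single peptides and receptors were called in both directions. VIPR1, the receptor of vasoactive intestinal peptide, was lower by -3.58 ± 0.17 (8.25 ± 0.06 in GFP-positive and 11.83 ± 0.04 in GFP-negative cells), and its ligand VIP was not tested. Neuromedin B (NMB) and neuromedin U (NMU) were higher by 1.15 ± 0.19 and 0.73 ± 0.17, and cholecystokinin (CCK) was at least 2.1-fold lower, or 1.39-fold without background correction. The somatostatin receptor SSTR2 was lower by -1.06 ± 0.19 and the kisspeptin receptor KISS1R at least 2.11-fold higher, or 1.39-fold without background correction. In all, 4 precursors were higher and 1 lower, and 1 receptor was higher and 3 lower, where 42.6% of all tested genes were called. NMU did not pass with 75th percentile scaling (adjusted p = 0.052) or without GFP-positive replicates 1 and 2 (0.0583 and 0.121), nor UCN without the same arrays (0.0845 and 0.113).

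**Figure D3:**
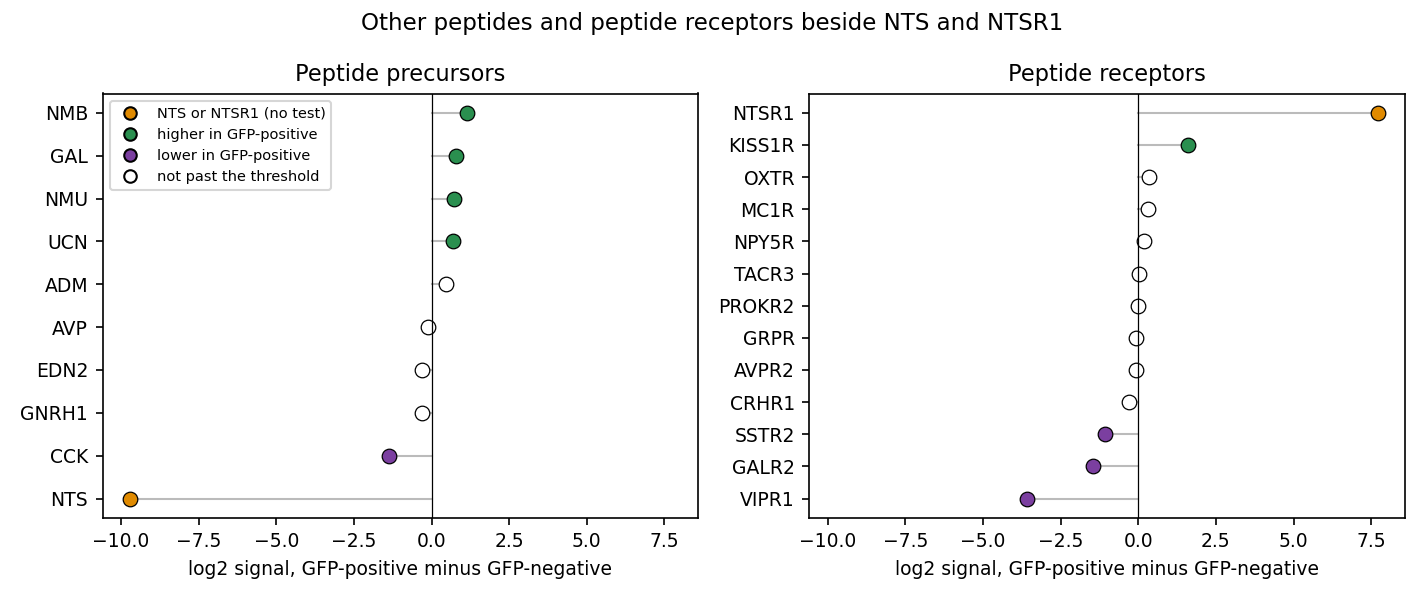
Log2 difference, GFP-positive minus GFP-negative, of the tested peptide precursors (left) and peptide receptors (right), with NTS and NTSR1 in orange, which were chosen for this contrast and carry no test. NTS lies at -9.72 and NTSR1 at 7.71, each with 1 fraction not above background, and VIPR1 lies at -3.58.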

How the data were processed

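Total RNA was converted to biotin-labelled cRNA for Illumina arrays, according to the protocols in the labels. The deposited intensity values are bead signals, not normalized per the file headers, and the same deposited table gives a detection p-value per probe and array. The submitters' processing notes name GenomeStudio 2009.2; any background subtraction by it was not given in the sources used here. Log2 values in the deposited table differed from log2 quantile-normalized signals by 0.0042 at most, and their median was 7.53 for each array.

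The signals went through limma 3.58.1 under R 4.3.3, by neqc with background inferred from detection p-values, an offset of 16, quantile normalization and log2. The 18098 probes detected (p under 0.05) by the pair of arrays of either group entered lmFit and eBayes, with residual degrees of freedom of 2 and a prior of 5.31, and p-values were adjusted by Benjamini-Hochberg. In all 7322 (40.5%) were called, 3394 higher and 3928 lower. An exact permutation test of 2 against 2 cannot go below 0.333. On simulated data, the share of false calls among all tested probes was well above the adjusted p threshold of 0.05. Over probes detected on all arrays it was below that threshold. The simulation changed far fewer probes than were called here, so its shares cannot be carried over to these data. Called genes not detected in 1 group are therefore given as bounds and counted apart. A bound does not test whether a call is true. Genes detected on 1 array of the dimmer group, such as SCG2, carry no bound, and the percentages called are over all tested probes or genes. A bound sets the dimmer group at its own value or the lowest detected value of each array, 6.09 to 6.17 log2.

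Symbols came from the platform annotation and were updated through gene identifiers. The brightest tested probe stands for a gene, and up to 4 called genes of each list are named. Beyond these, CPE, GNA11, ERBB2 and ERBB3 were named in their pathway lists after their values were seen. Members, lists, peptide pairs and motifs were chosen with earlier results of these data known. Replicate number was taken as a shared day from the series text; deviations of same-numbered arrays correlated at 0.219. Alternatives were other background corrections, normalizations, detection filters, the deposited table, a replicate block and leaving out each array.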

Additional observations from a re-analysis of the deposited data

How the results depend on the processing

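The bounds for NTS and NTSR1 could not turn direction while 1 fraction was bright and the other undetected, so only their size is compared. Dropping the detection filter and the replicate block do not enter a bound and left both as they were. They were 173-fold for NTS and 32.5-fold for NTSR1 both with the deposited table and when background was not corrected. They ranged from 490 to 538 for NTS and from 91.4 to 105 for NTSR1 when 1 array was left out. Probes called numbered 4598 to 7110 with 1 array left out, the lowest without GFP-positive replicate 2, and 8471 when replicate number entered as a block, which changed the call of 1 named gene, CTNNB1 (adjusted p = 0.0182 with the block). Pathway genes called numbered 42, and 23 where detection on all 4 arrays was required, 31 to 42 with 1 array left out, and 44 with the pairing as a block. The number of peptide pairs called in opposite directions was 1, and 0 where detection on all 4 arrays was required, and 0 to 1 with 1 array left out. No bound for the members can be had with that filter, which removes both.

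Of 76 other named genes, 5 turned direction somewhere, all uncalled and near 0: SORL1 (-0.10 to 0.37 with 1 array left out, below 0 at -0.10 and -0.04 for GFP-positive replicate 2 and GFP-negative replicate 1), AVP (0.01 with cyclic loess and -0.38 to 0.16 with 1 array left out, above 0 at 0.14 and 0.16 for those arrays), AVPR2 (0.05 with cyclic loess), ALX1 beside NTS (-0.56 to 0.26, above 0 for GFP-positive replicate 1 alone) and ATF2 (-0.59 to 0.19, above 0 for GFP-negative replicate 2 alone). The cause was not tested. Of the 65 called among them, 52 were still called without GFP-positive replicate 2, the fewest with 1 array left out, and 29 where detection on all 4 arrays was required, which left 36 untested. The brightness of NTSR2 and of the second NTS probe, below every detected probe, limits what can be said of them.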
